A study of Mus musculus with 19 samples.

Results

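Interferon regulatory factors (IRFs) and the BATF proteins are transcription factors that set the interferon and activation programmes of myeloid cells. Here 10 genes of these families, Irf1, Irf2, Irf3, Irf5, Irf7, Irf8, Irf9, Batf, Batf2 and Batf3, were followed in brain CD11b+ cells of mice. They were chosen by symbol out of 56980 genes in the count table, and matched to Ensembl identifiers through the mouse GENCODE annotation. Each symbol matched 1 identifier, and all 10 genes passed the filter on low counts, which left 18739 genes for testing.

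The 19 libraries came from 19 male mice aged 3 to 4 months. KO mice carried the Park7 Gt(XE726)Byg gene-trap allele on a C57BL/6NCrl background, and Park7 encodes DJ-1, a protein of the oxidative stress response whose loss causes an inherited form of Parkinson's disease. Wildtype mice were littermates from heterozygous breeding. Mice received 1 intraperitoneal injection of lipopolysaccharide (LPS) from E. coli O55:B5 at 4 µg per g body weight, or PBS as vehicle, and brains without olfactory bulb and cerebellum were taken after 6 h. CD11b+ cells were enriched on magnetic columns, which collect microglia together with any other CD11b+ myeloid cell of the perfused brain. The groups were wildtype PBS (n = 4), wildtype LPS (n = 5), KO PBS (n = 5) and KO LPS (n = 5), with 1 mouse behind each library. Each KO mouse carried the allele in all of its cells, so that effects within microglia and effects of the periphery on them are not separated by this design.

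By way of background, Toll-like receptor 4 and the cytosolic nucleic acid sensors activate the kinases TBK1 and IKKε, which phosphorylate IRF3 and IRF7, while MYD88 signalling activates IRF5. These factors switch on type I interferon genes. Interferon then acts through its receptor on STAT proteins, which bind IRF9 to form the complex ISGF3 on interferon-stimulated response elements. IRF1, induced through STAT proteins and NF-κB, drives many genes of the interferon-γ response, and IRF2 binds the same elements and often opposes it. IRF8, with its partner PU.1, is a lineage factor of microglia and other myeloid cells. The BATF proteins are basic leucine zipper factors that pair with JUN proteins and bind composite elements with IRF4 or IRF8. BATF2 is induced by interferon-γ and LPS in macrophages and BATF3 is best known for the development of cross-presenting dendritic cells.

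The genes lie on 8 chromosomes of the GRCm39 build. Irf1 is at chr11:53660812-53669200, Irf2 at chr8:47192222-47300501, Irf3 at chr7:44647033-44652272, Irf5 at chr6:29526276-29541870, Irf7 at chr7:140842619-140846398 on the minus strand, Irf8 at chr8:121463096-121485659, Irf9 at chr14:55841028-55847812, Batf at chr12:85733423-85755861, Batf2 at chr19:6191013-6222506 and Batf3 at chr1:190830044-190841142. All but Irf7 are on the plus strand and all are protein coding.

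The 250 bases upstream of the canonical transcript start were read from the GRCm39 genome to show what stands in front of some of the members. The elements searched, on both strands, were the interferon-stimulated response element written as GAAANNGAAA, the STAT-binding GAS element written as TTCNNNGAA, the AP-1 element written as TGANTCA and the NF-κB consensus (κB). Among the 21770 protein-coding promoters of this length, 3.32% held the first, 7.7% the second, 6.17% the third and 4.23% the κB consensus. Capitals mark the matches in the lines below, none of which overlapped another element. Irf1 is shown because both a GAS and a κB match stand in it, Irf7 as the member with the largest rise after LPS and a window without a match, Irf8 as the most abundant IRF at PBS per kb of merged exons, and Batf and Batf2 as the members of the BATF group that rose with LPS.
Irf1, chr11:53660591-53660840, plus strand: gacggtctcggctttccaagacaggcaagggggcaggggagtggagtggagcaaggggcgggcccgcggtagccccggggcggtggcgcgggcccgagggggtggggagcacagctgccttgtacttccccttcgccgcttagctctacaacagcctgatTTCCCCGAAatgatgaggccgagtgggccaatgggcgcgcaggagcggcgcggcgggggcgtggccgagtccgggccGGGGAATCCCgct
Irf7, chr7:140846399-140846648, minus strand: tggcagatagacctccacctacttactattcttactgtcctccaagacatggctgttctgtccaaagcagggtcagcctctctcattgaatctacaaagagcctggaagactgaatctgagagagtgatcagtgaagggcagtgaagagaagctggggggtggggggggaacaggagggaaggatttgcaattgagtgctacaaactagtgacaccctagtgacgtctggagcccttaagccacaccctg
Irf8, chr8:121462847-121463096, plus strand: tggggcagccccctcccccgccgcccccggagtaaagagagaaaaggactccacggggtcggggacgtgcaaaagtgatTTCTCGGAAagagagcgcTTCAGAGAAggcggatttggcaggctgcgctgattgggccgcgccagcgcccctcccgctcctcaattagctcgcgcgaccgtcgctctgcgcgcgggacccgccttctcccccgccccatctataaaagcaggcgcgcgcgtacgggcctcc
Batf, chr12:85733173-85733422, plus strand: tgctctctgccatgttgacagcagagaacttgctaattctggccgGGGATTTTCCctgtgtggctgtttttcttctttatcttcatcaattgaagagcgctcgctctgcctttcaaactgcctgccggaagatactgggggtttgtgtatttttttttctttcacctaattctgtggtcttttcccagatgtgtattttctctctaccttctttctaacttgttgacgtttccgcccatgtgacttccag
Batf2, chr19:6214185-6214434, plus strand: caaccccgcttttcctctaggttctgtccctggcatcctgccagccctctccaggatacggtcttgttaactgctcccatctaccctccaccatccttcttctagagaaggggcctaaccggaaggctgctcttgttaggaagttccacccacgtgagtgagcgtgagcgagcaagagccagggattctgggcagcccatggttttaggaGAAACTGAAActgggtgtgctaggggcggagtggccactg

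In Irf1 the GAS match TTCCCCGAA ran from 90 to 82 bases before the start and the κB match GGGGAATCCC from 13 to 4 bases before it. The last 29 bases of this window are annotated as exon of other Irf1 transcripts that start further upstream, and an antisense lncRNA, Gm74496, is annotated over the whole window. Irf8 held a pair of GAS matches, TTCTCGGAA from 171 to 163 and TTCAGAGAA from 153 to 145 bases before the start. Batf held a κB match, GGGATTTTCC, from 205 to 196 bases before the start. In Batf2 the response element GAAACTGAAA stood from 40 to 31 bases before the start, in an intron of Batf2 transcripts that begin upstream of the canonical one. Among the other members, Irf2 held a response element and a GAS match, Batf3 a GAS match and Irf3 a κB match. None of these letters was found in the windows of Irf5, Irf7 and Irf9, and no member held the AP-1 letters. All 250 bases of the Irf9 window are annotated as exon of other Irf9 transcripts, and Rnf31 exons cover 118 of them. Exons also lie in the windows of Batf3 (163 bases of Batf3), Irf5 (72 bases of Irf5), Irf3 (up to 146 bases of Bcl2l12) and Irf2 (up to 180 bases of Gm16675). Matches stood in 3 of the 5 members that rose with LPS and in 4 of the 5 that were not called. A match is only a run of letters and does not show binding.

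Total counts ran from 11936364 to 22788884 per library, with a median of 17211939. Park7 was at 20.6 to 32.1 CPM in the 9 wildtype libraries and at 0.457 to 5.38 CPM in the 10 KO libraries, so all libraries matched their genotype label. CPM are counts relative to the library size, here scaled by the trimmed mean of M-values (TMM). The summed level of 8 microglial markers was 24509 to 38448 CPM in wildtype PBS and 10289 to 16651 CPM in wildtype LPS, against 25845 to 39222 CPM in KO PBS and 10676 to 16571 CPM in KO LPS. All 8 of these genes fell with LPS in both genotypes. The summed level of 6 monocyte markers was 167 to 188 CPM in wildtype PBS, 313 to 455 CPM in wildtype LPS, 134 to 196 CPM in KO PBS and 198 to 471 CPM in KO LPS, and 5 of the 6 rose in each genotype. Of 8 neutrophil markers, 4 rose in wildtype and 5 in KO, with sums of 125 to 376 CPM in wildtype LPS and 93.1 to 373 CPM in KO LPS. The T-cell genes Cd3e, Cd3d and Cd3g did not exceed 3 counts in any library. Dendritic-cell markers summed to 799 to 1308 CPM in wildtype PBS, 289.8 to 374 CPM in wildtype LPS, 945 to 1378 CPM in KO PBS and 282 to 610.1 CPM in KO LPS. Of these 6 markers 3 fell in wildtype and 2 in KO. Siglech, which microglia also express, made up most of the sum and fell in both genotypes as the microglial markers did. Flt3 fell in both too (log2FC -1.43 and -1.24), and Cd209a fell in wildtype (-1.19) and was not called in KO (-0.61). Xcr1 and Clec9a, which define cross-presenting cells, stayed at or below 13 counts. Of 6 markers of border-associated macrophages 4 fell in each genotype. Of the lists for astrocytes, neurons, B cells and endothelial cells, 1 gene each was called in both genotypes: Gfap (log2FC 1.71 in wildtype and 1.65 in KO) and Tubb3 (2.56 and 1.66) rose, and Cd79b (-2.18 and -2.66) and Cldn5 (-1.58 and -1.78) fell. Oligodendrocyte markers varied within groups, from 477 to 6567 CPM in wildtype LPS and from 1034 to 11132 CPM in KO LPS. In bulk samples a change in the number of cells of a type and a change in RNA per cell cannot be told apart, and the part of these markers in the results on the members was not tested.

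At PBS, Irf8 and Irf5 were the most abundant members. To compare levels between genes, CPM were divided by the length of all annotated exons merged, which gives CPM per kb. In wildtype PBS, Irf8 was at 46 ± 8.51 and Irf5 at 43.2 ± 8.92 CPM per kb (SD, n = 4). Their ranges overlapped with each other but not with that of Irf1, the next in order. Irf1 was at 15.5 ± 2.62, Irf3 at 13.3 ± 0.948 and Irf9 at 10.1 ± 1.81 CPM per kb. Irf1 and Irf3 overlapped, as did Irf3 and Irf9. Below them came Irf2 at 6.31 ± 0.424, Batf3 at 5.11 ± 1.37, Irf7 at 3 ± 0.626, Batf at 1.84 ± 0.284 and Batf2 at 0.492 ± 0.0974 CPM per kb, where Irf2 overlapped with Batf3 and Batf3 with Irf7. Batf2 was thus represented by only 15 to 24 counts in each wildtype PBS library.

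The KO PBS group gave the same order of means, with Irf8 at 45.9 ± 3.79 and Irf5 at 42.9 ± 3.53 CPM per kb (SD, n = 5) at the top and Batf2 at 0.549 ± 0.12 CPM per kb at the bottom. Irf8 and Irf5 together, as lineage factor and MYD88-dependent factor, made up 31.7% ± 1.36 and 29.7% ± 1.57 of the summed level of the 10 genes in wildtype PBS (SD, n = 4). In KO PBS their shares were 32.3% ± 1.56 and 30.2% ± 1.41 (SD, n = 5). Irf7 contributed 2.14% ± 0.672 of the sum in wildtype PBS and 1.68% ± 0.299 in KO PBS.

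After LPS the order of levels per kb of merged exons changed and Irf7 led. In wildtype LPS, Irf7 stood at 80.1 ± 17.3, Irf1 at 54.2 ± 19.5, Irf8 at 36.4 ± 7.55, Irf5 at 31.7 ± 5.31 and Irf9 at 27.7 ± 3.14 CPM per kb (SD, n = 5). Neighbours among these 5 overlapped, while Irf9 and Irf3 did not. Irf7 exceeded Irf1 in all 5 of these libraries, although the ranges of the group overlapped. Irf3 at 18.1 ± 1.96, Batf at 15.2 ± 7.56, Irf2 at 7.86 ± 1.62, Batf3 at 4.51 ± 2.01 and Batf2 at 4.31 ± 1.88 CPM per kb followed, and neighbours among these 5 overlapped. In KO LPS the means kept this order, with Irf7 at 57.8 ± 10.5 and Irf1 at 41.2 ± 10.9 CPM per kb (SD, n = 5), and Irf7 above Irf1 in 4 of 5 libraries. Irf7 then made up 28.4% ± 2.89 of the summed level in wildtype LPS and 24.3% ± 5.12 in KO LPS.

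The order depends on the length used. With the length of the canonical transcript alone, Irf5 ranked above Irf8 in both PBS groups, at 141 against 88.2 CPM per kb in wildtype. With that length Irf5 also led in KO LPS at 109.8 CPM per kb, above Irf7 at 91.1 and Irf1 at 90.2 CPM per kb, while Irf7 kept the first place in wildtype LPS, ahead of Irf1 at 119 and Irf5 at 104 CPM per kb. This length was tried after the data were seen. By CPM not divided by length, Irf8 ranked first after LPS, at 354 CPM against 303 CPM for Irf7 in wildtype, and in KO both Irf8 at 343 CPM and Irf5 at 240.4 CPM exceeded Irf7 at 218 CPM. Of 40 ranks, 23 moved without the division and 22 with the canonical length.

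**Figure D1:**
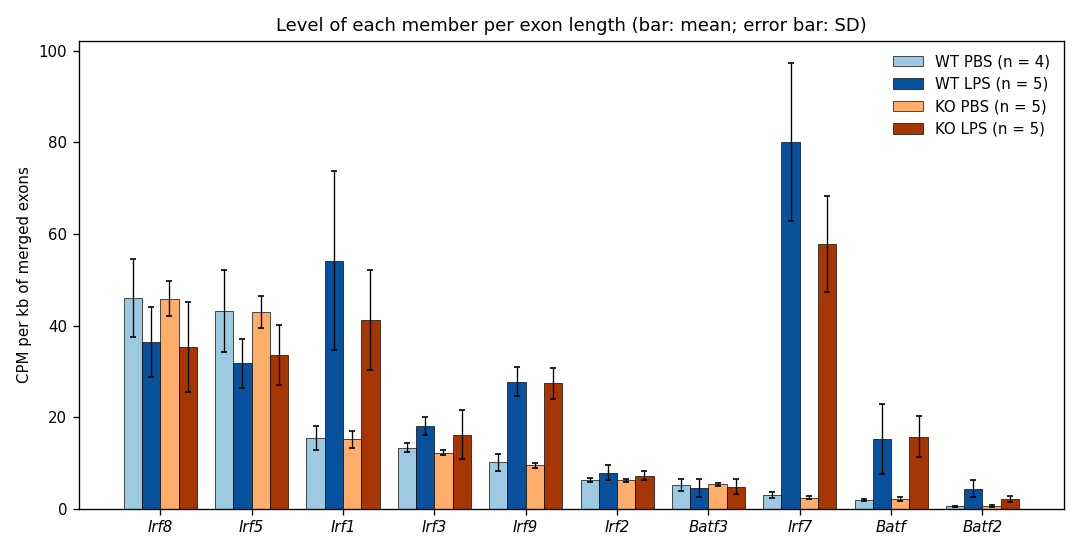
Level of each member in CPM per kb of merged exons (vertical axis, linear from 0) in the 4 groups, ordered by the wildtype PBS mean; bars are means and error bars are SD over 4 or 5 mice. Irf8 and Irf5 are the tallest bars at PBS, and Irf7 is the tallest after LPS at 80.1 in wildtype and 57.8 in KO.

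The response to LPS was asked first in wildtype mice. Called members had an adjusted p under 0.05 and a log2 fold change (log2FC) of at least 0.5 in size in edgeR's quasi-likelihood test over all 18739 genes. Irf1, Irf7, Irf9, Batf and Batf2 rose, that is 5 of 10 members, and none fell at this threshold. Among all genes tested, 35.9% were called by the same rule, 18.4% as higher and 17.4% as lower. The members' median change was 0.95 on the log2 scale, against -0.06 for all genes. In KO mice the same 5 genes rose and none fell, against 20.1% and 19% of all genes (39.1% in either direction), with a median of 0.92 over the members and -0.01 over all genes. LPS and PBS libraries did not overlap for these 5 genes in either genotype, and in wildtype Irf3 was separated too. By that criterion 37.8% of all genes separated in wildtype and 32.8% in KO, 17% and 16.6% with LPS lower, a direction that no member took. An exact permutation test gave p = 0.00794, the smallest value it can give here, for each of the 5 genes in each genotype.

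**Figure D2:**
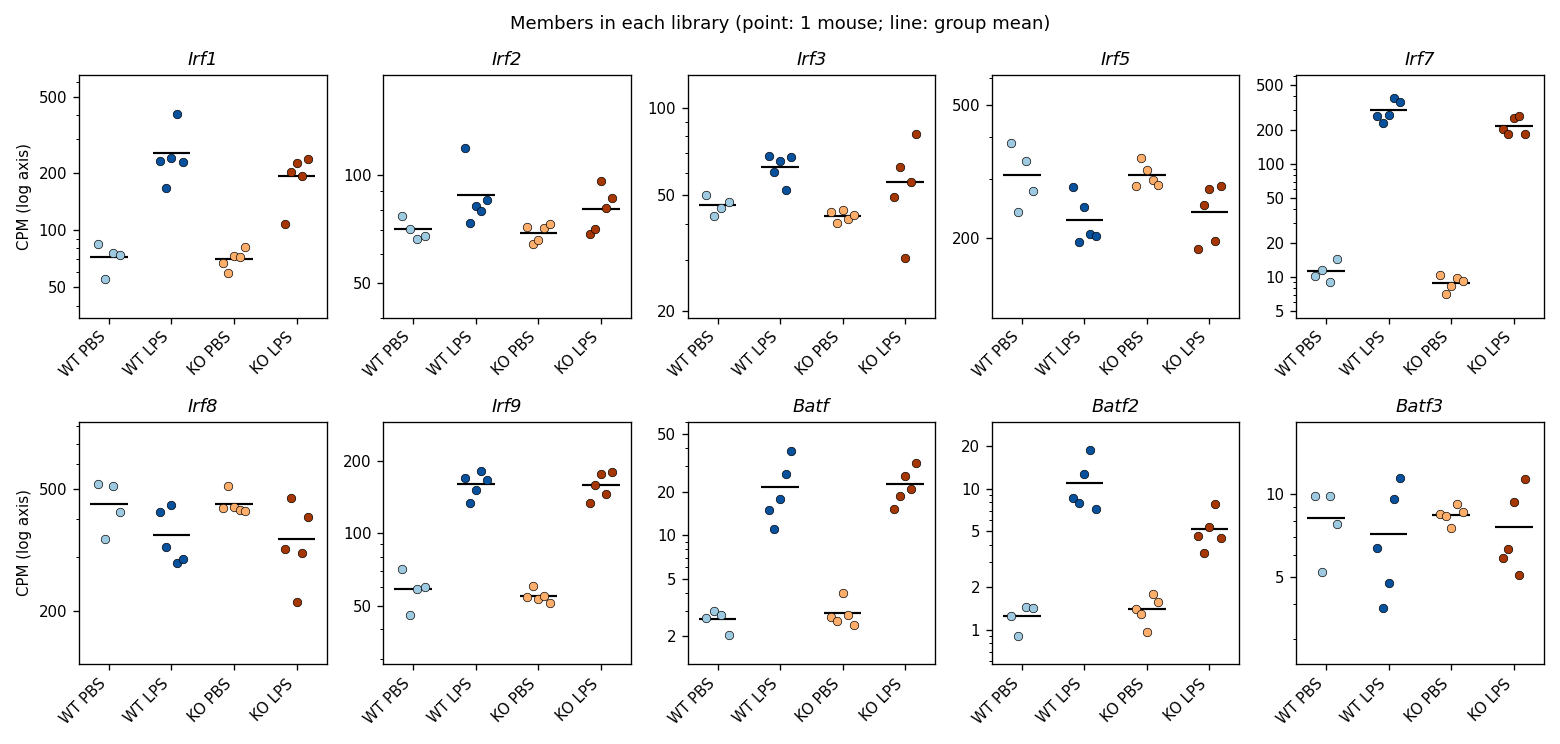
CPM of each member (log vertical axis, 1 panel per gene) in the wildtype PBS, wildtype LPS, KO PBS and KO LPS libraries; each point is 1 mouse and each line the group mean. Irf1, Irf7, Irf9, Batf and Batf2 separate LPS from PBS libraries in both genotypes, and in Batf2 the KO LPS points lie between 3.49 and 7.77 CPM against 7.16 to 18.7 CPM in wildtype LPS.

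Irf7, the amplifier of type I interferon production that is itself induced by ISGF3, changed most. It was at 10.2, 11.6, 9.07 and 14.5 CPM in the wildtype PBS libraries and at 267, 230.2, 274, 385 and 357 CPM in the wildtype LPS libraries. KO PBS libraries held 10.4, 7.02, 8.33, 9.74 and 9.29 CPM, and KO LPS libraries 203, 184, 258, 264 and 183 CPM. All LPS libraries thus stood far above all PBS libraries. The rise was 26.7-fold in wildtype (log2FC 4.74, SE 0.21, adjusted p = 5.1e-11) and 24.4-fold in KO (log2FC 4.61, SE 0.19, adjusted p = 1.1e-11).

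Irf1 was at 84.7, 55.5, 75.7 and 74 CPM in wildtype PBS and at 229, 166, 238, 408 and 227 CPM in wildtype LPS. It was at 67.4, 59.2, 72.6, 72.3 and 81.8 CPM in KO PBS and at 107, 200.5, 226, 193 and 236 CPM in KO LPS. Wildtype LPS replicate 4 was the highest and KO LPS replicate 1 the lowest of the LPS libraries, and neither reached the PBS range. Irf1 rose 3.5-fold in wildtype (log2FC 1.81, SE 0.24, adjusted p = 5.95e-06) and 2.73-fold in KO (log2FC 1.45, SE 0.22, adjusted p = 2.14e-05).

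Irf2, its antagonist on shared elements, was at 66.4 to 77 CPM in wildtype PBS and 73.4 to 119 CPM in wildtype LPS, and at 64 to 72.8 CPM and 68.4 to 96.4 CPM in the KO groups. Groups overlapped, and the log2FC of 0.32 (SE 0.13) in wildtype and 0.22 (SE 0.12) in KO missed the threshold, with adjusted p = 0.055 and 0.15. The ratio of Irf1 to Irf2 CPM within a library went from 1.03 ± 0.165 in wildtype PBS (SD, n = 4) to 2.98 ± 1.28 in wildtype LPS (SD, n = 5). In KO it went from 1.02 ± 0.0908 to 2.38 ± 0.5 (SD, n = 5 each), and LPS and PBS ranges were apart in both genotypes.

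For Irf9, the DNA-binding subunit of ISGF3, PBS libraries held 71.3, 45.6, 58.9 and 59.7 CPM in wildtype and 54.4, 60.2, 53.3, 54.9 and 51.5 CPM in KO. LPS libraries held 169, 134, 152, 182 and 167 CPM in wildtype and 133, 159, 177, 146 and 179 CPM in KO. LPS libraries of both genotypes covered nearly the same range. Irf9 rose 2.73-fold in wildtype (log2FC 1.45, SE 0.13, adjusted p = 4.15e-08) and 2.89-fold in KO (log2FC 1.53, SE 0.12, adjusted p = 5.75e-09). Its annotation shares 282 exonic bases on the same strand with Rnf31, so that reads in that stretch cannot be assigned with certainty.

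Batf, a basic leucine zipper partner of JUN and IRF proteins, was at 2.66, 2.97, 2.82 and 2.05 CPM in wildtype PBS and at 14.9, 11, 17.9, 26.5 and 38 CPM in wildtype LPS. KO PBS libraries held 2.7, 2.54, 4.01, 2.83 and 2.38 CPM and KO LPS libraries 15.2, 18.7, 25.7, 20.7 and 31.6 CPM. The spread after LPS was wide in both genotypes, and the lowest LPS library was still above the highest PBS library. Batf rose 8.22-fold in wildtype (log2FC 3.04, SE 0.33, adjusted p = 5.88e-07) and 7.72-fold in KO (log2FC 2.95, SE 0.30, adjusted p = 1.92e-07).

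Batf2 was at 1.25, 0.909, 1.45 and 1.43 CPM in wildtype PBS and at 8.53, 7.96, 12.7, 18.7 and 7.16 CPM in wildtype LPS. It was at 1.41, 1.29, 0.965, 1.78 and 1.57 CPM in KO PBS and at 4.61, 3.49, 5.38, 7.77 and 4.48 CPM in KO LPS. PBS libraries of both genotypes were alike, while only 1 KO LPS library reached into the wildtype LPS range. The rise was 8.72-fold in wildtype (log2FC 3.12, SE 0.33, adjusted p = 4.03e-07) and 3.66-fold in KO (log2FC 1.87, SE 0.29, adjusted p = 2.78e-05).

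Batf3 moved apart from its relatives. It was at 5.21 to 9.85 CPM in wildtype PBS, 3.88 to 11.4 CPM in wildtype LPS, 7.52 to 9.17 CPM in KO PBS and 5.09 to 11.3 CPM in KO LPS, with all ranges overlapping. The log2FC was -0.18 (95% interval -0.81 to 0.44) in wildtype and -0.16 (-0.74 to 0.43) in KO. Within libraries the ratio of Batf to Batf3 CPM went from 0.348 ± 0.148 in wildtype PBS (SD, n = 4) to 3.01 ± 0.551 in wildtype LPS (SD, n = 5), and from 0.348 ± 0.105 to 3.04 ± 0.588 in KO (SD, n = 5 each).

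The latent factors and the lineage factor moved little. Irf3, which waits in the cytoplasm for TBK1, was at 42.5 to 50.3 CPM in wildtype PBS and 52.3 to 68.7 CPM in wildtype LPS, with no overlap, at a log2FC of 0.44 (SE 0.18, adjusted p = 0.0582). In KO it was at 40.2 to 44.5 CPM in PBS and 30.3 to 81.6 CPM in LPS, with a log2FC of 0.39 (SE 0.17, adjusted p = 0.0668). KO LPS replicate 3 was the one below all PBS libraries, and without it the KO log2FC of Irf3 was 0.55 and was called. Without KO LPS replicate 5 it was 0.22. In wildtype, Irf3 was called without LPS replicate 4, at 0.50.

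Irf5 was at 239 to 383 CPM in wildtype PBS and 195 to 284 CPM in wildtype LPS, and at 286 to 346 CPM and 186 to 287 CPM in the KO groups. Its log2FC was -0.45 in wildtype (SE 0.16, adjusted p = 0.0288) and -0.36 in KO (SE 0.15, adjusted p = 0.0586), short of the fold threshold, and LPS and PBS ranges overlapped in both. At any fold, an adjusted p under 0.05 made Irf5 the 1 member lower after LPS in wildtype, against 19.7% of all genes, and left 0 members lower in KO, against 21.9%. With each library left out in turn, the wildtype value of Irf5 ran from -0.54 to -0.33. It was called without wildtype PBS replicate 2 or wildtype LPS replicate 1. The adjusted p ran from 0.0105 to 0.125 and was under 0.05 in 4 of 9 such omissions. It was above it without wildtype PBS replicate 1 or 3 or wildtype LPS replicate 2, 4 or 5. Irf8 was at 343 to 517 CPM in wildtype PBS and 286 to 443 CPM in wildtype LPS, and at 424 to 512 CPM and 215 to 467 CPM in the KO groups. The log2FC of Irf8 was -0.34 (SE 0.19, adjusted p = 0.172) in wildtype and -0.38 (SE 0.18, adjusted p = 0.0935) in KO. KO LPS replicate 3 held the lowest Irf8 level of all 19, as it did for Irf3. Without KO LPS replicate 2 the KO value of Irf8 was -0.52 and was called.

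Irf4, a further IRF that is not among the 10, went the other way. Irf4, a partner of BATF proteins in lymphocytes and dendritic cells, fell from a mean of 21.5 to 10.3 CPM in wildtype (log2FC -1.06, SE 0.25, adjusted p = 0.00208) and from 19.8 to 12 CPM in KO (log2FC -0.73, SE 0.24, adjusted p = 0.0173).

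**Figure D3:**
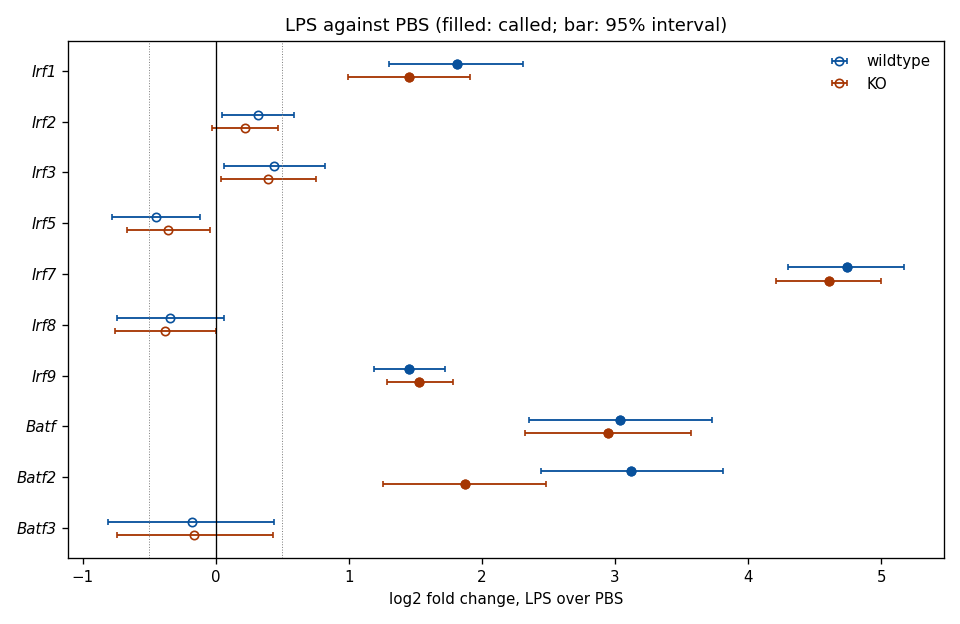
Log2 fold change of LPS over PBS (horizontal axis) for each member in wildtype and KO mice, with 95% intervals; filled points are called and dotted lines mark -0.5 and 0.5. Both genotypes place Irf7 at the far right, at 4.74 and 4.61, and their points differ most for Batf2, at 3.12 and 1.87.

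The second question was whether DJ-1 loss changed the members. Members were called here at an unadjusted p under 0.05 and a log2FC of at least 0.5 in size, the rule of the study, and adjusted values are given with it. At PBS, 0 of 10 members were called, against 0.8% of all genes (0.00534% by an adjusted p), and 0 had an unadjusted p under 0.05 in edgeR or in DESeq2. No member separated KO from wildtype PBS libraries, which 0.971% of all genes did, 0.544% with KO lower. The intervals bound how large a difference could be. Irf8, Irf5 and Irf1 had log2FC of -0.00 (95% interval -0.40 to 0.40), -0.01 (-0.34 to 0.32) and -0.04 (-0.51 to 0.44). Irf7 was the lowest of the members at -0.34 (-0.72 to 0.03), with means of 8.96 CPM in KO and 11.3 CPM in wildtype. Batf2, at counts of 19 to 34 in KO and 15 to 24 in wildtype, could not be fixed better than 0.16 (-0.50 to 0.82).

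After LPS, 1 of 10 members was called, Batf2, which was lower in KO. Among all genes, 1.31% were called, 0.544% as higher and 0.763% as lower. Batf2 was at 5.15 ± 1.62 CPM in KO LPS and 11 ± 4.81 CPM in wildtype LPS (SD, n = 5 each), 2.14-fold lower in KO at a log2FC of -1.10 (SE 0.27). The unadjusted p was 0.000793, and over all genes the adjusted p was 1. By the adjusted rule no member was called, against 0.0107% of all genes. Over the 10 LPS libraries alone, a two-sided exact permutation test gave p = 0.0159 for Batf2 and p = 0.0397 for Irf7, where 0.00794 is the smallest value possible. These were among 40 such tests on the members and are not adjusted. Wildtype LPS replicate 4 was the highest for Batf2, and without it the log2FC was -0.82, still called.

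Irf7 and Irf1 were also lower on average in KO LPS, without being called. Irf7 was at 218 ± 39.7 CPM in KO LPS and 303 ± 65.4 CPM in wildtype LPS (SD, n = 5 each), with a log2FC of -0.47 (95% interval -0.81 to -0.13), an unadjusted p of 0.00877 and an adjusted p of 1. That is just under the fold threshold, and Irf7 was called when wildtype LPS replicate 1 or 2 or KO LPS replicate 3 or 4 was left out, at -0.51 to -0.55. Over all single omissions the Irf7 value ran from -0.55 to -0.37 and that of Irf1, given next, from -0.51 to -0.16. The ranges of the groups overlapped. Irf1 was at 193 ± 50.9 CPM in KO LPS and 253 ± 91.2 CPM in wildtype LPS (SD, n = 5 each), with a log2FC of -0.40 (-0.84 to 0.05), and was called without wildtype LPS replicate 2, at -0.51. The difference in Irf1 depended on single libraries. KO LPS replicate 1, had 1.42% ribosomal and mitochondrial counts, against 0.253 to 0.672% in the other 18 libraries, and the highest sums of oligodendrocyte markers, 11132 CPM, and neuronal markers, 93.8 CPM. The part of these in the Irf1 value was not tested. In a comparison added after the data were seen, the log2 ratio of group means was -0.16 without wildtype LPS replicate 4 and -0.01 without both it and KO LPS replicate 1. For Irf7 the same omissions gave -0.37 and -0.34, and for Batf2 -0.82 and -0.78.

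The other 7 members had log2FC between -0.17 and 0.08 after LPS. Irf9 had the narrowest interval, with a log2FC of -0.02 (95% interval -0.26 to 0.22). Irf2 was at -0.13 (-0.38 to 0.13), Irf3 at -0.17 (-0.53 to 0.18), Irf5 at 0.08 (-0.23 to 0.39) and Irf8 at -0.05 (-0.42 to 0.33). Batf, in contrast to Batf2, was at 0.05 (-0.52 to 0.62) and Batf3 at 0.07 (-0.52 to 0.67). No member had LPS libraries of KO and wildtype without overlap, a separation that 0.219% of all genes showed.

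Sums of markers of other cell types overlapped between KO LPS and wildtype LPS, and 1 marker, Ncr1, was called between them, by its unadjusted p. The summed monocyte markers were at a median of 245 CPM in KO LPS and 415 CPM in wildtype LPS, and all 6 of these genes had a log2FC below 0, with 0 called. The summed neutrophil markers had a median of 270.2 CPM in KO LPS and 206 CPM in wildtype LPS, with 0 called. The dendritic-cell list had medians of 411 and 303 CPM with 0 called, and Siglech, which microglia also express, carried that sum with means of 392 and 299 CPM. Ncr1, a receptor of natural killer cells, was at 0.209 CPM in KO LPS and 0.663 CPM in wildtype LPS and was called as lower, while Cd3e, Cd3d and Cd3g did not exceed 3 counts in any library and the 7 T and NK cell markers summed to 0.361 to 1.79 CPM in KO LPS and 0.512 to 2.86 CPM in wildtype LPS. Counts of Ifng, the interferon-γ gene, were 10, 1, 19, 25 and 8 in wildtype LPS and 0, 1, 1, 5 and 0 in KO LPS. The wildtype LPS library with most Batf2 counts also held most Ifng counts and, among wildtype LPS libraries, the highest sum of monocyte markers, 455 CPM. Other wildtype LPS libraries did not follow this order. Replicate 5, with the lowest Batf2 of the group at 7.16 CPM, had a monocyte sum of 434 CPM and 8 Ifng counts. Replicate 2, with 7.96 CPM of Batf2, had the lowest monocyte sum of the group, 313 CPM, and 1 Ifng count. The KO LPS library with the highest monocyte sum, replicate 3 at 471 CPM, held 5.38 CPM of Batf2. KO LPS replicate 4, the KO library with most Batf2 at 7.77 CPM, held the most Ifng counts of its group, 5, the highest sum of T and NK cell markers, 1.79 CPM, and a monocyte sum of 408 CPM. Their part in the lower Batf2 of KO mice was not tested.

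**Figure D4:**
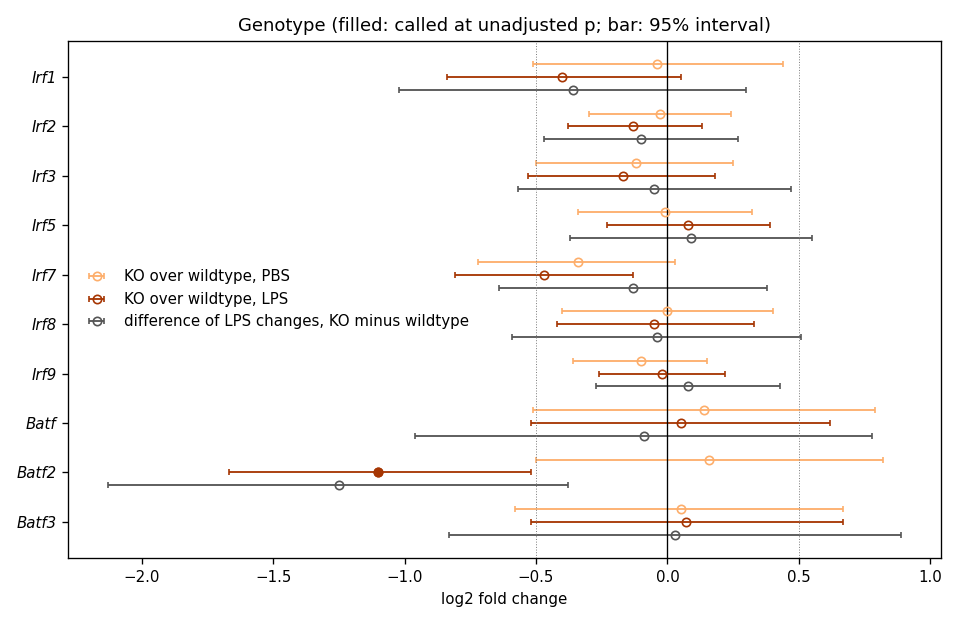
Log2 fold change of KO over wildtype at PBS and after LPS, and the difference of the LPS changes between genotypes (horizontal axis), for each member with 95% intervals; the filled point is called at an unadjusted p and dotted lines mark -0.5 and 0.5. The Batf2 interval after LPS, -1.67 to -0.52, lies wholly below 0, as does that of Irf7, -0.81 to -0.13.

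The test of the difference between the LPS responses of KO and wildtype mice bears on whether the response itself depends on genotype. By an adjusted p under 0.05, 0 of 10 members and 0% of all genes were called by edgeR, and DESeq2 called 0 as well. At an unadjusted p under 0.05 there were 180 of 18739 genes in edgeR (0.961%) and 372 of 34972 in DESeq2 (1.06%), and Batf2 was the member among them. Its LPS response was smaller in KO by a log2FC of -1.25 (SE 0.42, unadjusted p = 0.00759, adjusted p = 1). For Irf7, the interval of the difference was -0.64 to 0.38 around -0.13, and for Irf1 -1.02 to 0.30 around -0.36. Irf9 was at 0.08 (-0.27 to 0.43) and Batf at -0.09 (-0.96 to 0.78). Within LPS libraries the ratio of Batf2 to Batf CPM was 0.58 ± 0.227 in wildtype and 0.243 ± 0.0946 in KO (SD, n = 5 each), with ranges of 0.188 to 0.72 and 0.142 to 0.376 that overlapped.

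The interferon genes that act upstream of Irf7, Irf9 and Irf1 were barely represented. Ifnb1 had 0 counts in all 9 PBS libraries, which allows up to 3 counts per library, 2, 0, 6, 4 and 14 counts in wildtype LPS and 1, 4, 7, 2 and 14 counts in KO LPS. Ifna1, Ifna2, Ifna4 and Ifna5 had 0 counts in all libraries. All 6 interferon genes of the list stayed under the filter and were not tested.

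Of 21 sensors, adaptors and kinases upstream of IRF3, IRF5 and IRF7, 9 rose with LPS in each genotype, while 3 fell in wildtype and 2 in KO. Ikbke, which encodes the inducible kinase of IRF3 and IRF7, rose from 2.79 to 158 CPM in wildtype (log2FC 5.82, SE 0.53) and from 3.53 to 131 CPM in KO (log2FC 5.21, SE 0.46). Tbk1, its constitutive relative, had log2FC of 0.33 and 0.35 and was not called. The RNA sensors Ifih1 and Rigi rose by log2FC of 2.44 and 1.70 in wildtype and 2.34 and 1.76 in KO, and the adaptor Myd88 by 1.29 and 1.52. Tlr4, the LPS receptor, fell in both genotypes, at log2FC of -1.06 and -1.09, as did Slc15a4, a lysosomal transporter needed for IRF5 activation, at -0.70 and -0.90. Sting1 fell in wildtype at -0.75 and was at -0.34 without a call in KO.

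Of 10 receptor chains, Janus kinases and STATs, 5 rose and 0 fell in each genotype. Stat2, which encodes a subunit of ISGF3, rose by a log2FC of 2.40 in wildtype and 2.25 in KO, and Jak1, a kinase bound to the receptor, by 0.97 and 1.26. The chains Ifnar1, Ifnar2, Ifngr1 and Ifngr2 were not called, at log2FC between 0.01 and 0.43. Of 11 DNA-binding partners and corepressors, 6 rose and 0 fell in each genotype. Spi1, which encodes PU.1, the partner of IRF8, rose by 1.03 and 0.97, and Junb, a partner of BATF, by 0.96 and 1.03. Jun and Jund were not called. Nfil3, a leucine zipper factor, rose from 5.31 to 120.5 CPM in wildtype and from 6.41 to 118 CPM in KO.

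All 16 textbook targets of IRFs and ISGF3 rose in both genotypes. Their median was 3.86 on the log2 scale in wildtype and 3.63 in KO. Of 19 textbook targets of IRF1, IRF8 and BATF2 after interferon-γ, 16 rose in wildtype and 15 in KO, with medians of 3.53 and 3.13. Psmb9, Ciita and Casp1 were not called in either genotype, and Psmb8 was called in wildtype alone, at log2FC of 0.81 against 0.39 in KO, and the test of that difference gave no call. The lists hold genes known to respond to LPS and were chosen with results of these data known, so their direction is no independent evidence.

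Between genotypes after LPS, 0 of the 16 ISGF3 targets were called, and 15 of them had a log2FC below 0, with a median of -0.24. The lowest of the 16 were Isg15, at 45.6 CPM in KO and 63.2 CPM in wildtype (log2FC -0.47, unadjusted p = 0.0335), and Oasl2. Oasl2 was at 119.6 and 165 CPM (log2FC -0.47, unadjusted p = 0.013). Others lay nearer 0, such as Rsad2 at -0.04 and Mx2 at -0.13, and Cxcl10 was at 0.09. Of the 19 interferon-γ targets, 1 was called, Ciita, the transactivator of MHC class II, at 4.05 CPM in KO and 7.23 CPM in wildtype (log2FC -0.83, SE 0.24, unadjusted p = 0.0022, adjusted p = 1). All 19 had a log2FC below 0, with a median of -0.36. Over all genes 46.7% lay below 0 and the median was 0.02. The upstream list and the receptor list had medians of -0.02 and 0.06, the partners -0.07 and the 10 members -0.09. Below 0 lay 11 of the 21 upstream genes and 4 of the 10 receptor genes. In these 2 lists Stat3, Jak1 and Traf3 were higher in KO, at log2FC of 0.37, 0.35 and 0.29. Tlr9 was lower in KO, at -0.34, and none of these genes was called. At PBS the medians of the ISGF3 and interferon-γ targets were -0.04 and -0.06. There, Cxcl9, an interferon-γ target, was called as lower in KO at 0.372 against 1.86 CPM (log2FC -2.28, SE 0.73, unadjusted p = 0.00571). That call rests on the unadjusted p and on a low level. The LPS rise of Cxcl9 was larger in KO by a log2FC of 1.92 (SE 0.91, unadjusted p = 0.0479), without a call. Genes of a list respond together and do not count as independent. Both target lists were chosen with results of these data known, and the paper names Ciita, Oasl2 and Cxcl9 as lower in KO. Their direction between genotypes is thus no independent evidence, also when set beside the share over all genes.

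**Figure D5:**
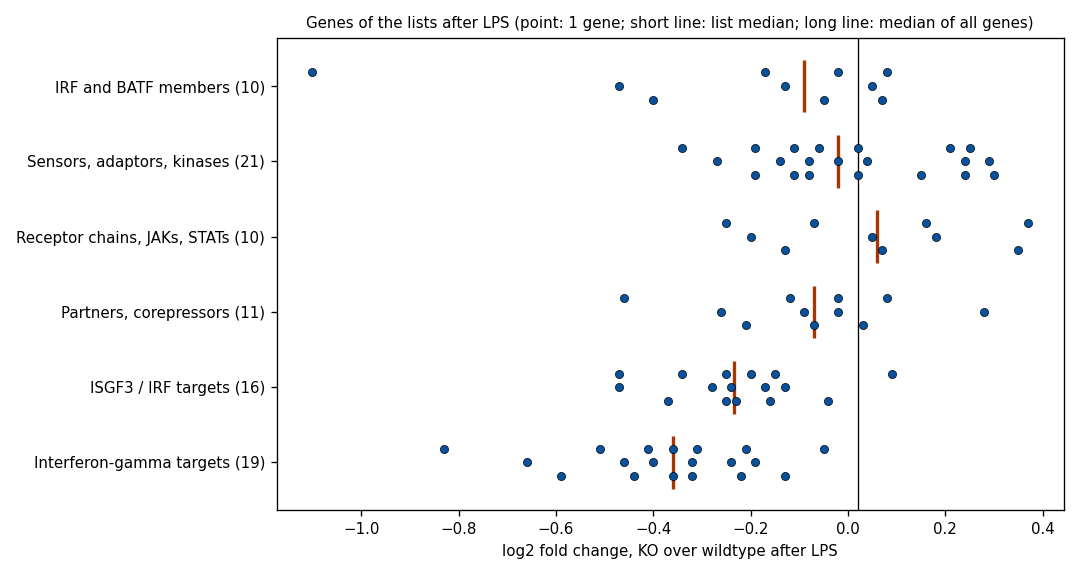
Log2 fold change of KO over wildtype after LPS (horizontal axis) for each gene of the members and of 5 pathway lists; points are genes, short lines list medians and the long line the median of all genes, 0.02. All 19 interferon-γ targets lie left of 0 around a median of -0.36, and Batf2 is the leftmost point of all at -1.10.

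Genes most like each member were named by Pearson's r of log2 CPM over all 19 libraries among 14469 protein-coding genes. These values cover differences between groups and between mice together, over libraries shared by all genes, and are given as a description. Irf7 was most like Isg15 (r = 0.997), Oasl2 (r = 0.996) and Zbp1 (r = 0.996), and Irf9 like Sla (r = 0.994), Csf2rb2 (r = 0.993) and Slfn8 (r = 0.992). Batf was nearest to Slc2a6 (r = 0.992), Rhbdf2 (r = 0.989) and Cd40 (r = 0.988), Batf2 to Serpina3g (r = 0.957), Gpr141 (r = 0.954) and Tgtp2 (r = 0.952), and Irf1 to Mxd1 (r = 0.971), Scfd1 (r = 0.967) and Stx18 (r = 0.967). Among the members that were not called, Irf3 was nearest to Dapk3 (r = 0.955), Irf5 to Cul1 (r = 0.956), Irf8 to Ccdc97 (r = 0.935), Irf2 to Proser1 (r = 0.856) and Batf3 to Mtdh (r = 0.822).

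Once the group means were taken off, members still differed in how they varied between mice of a group. Over 19 libraries, Irf9 and Batf3 had an r of 0.78, Irf5 and Irf9 of 0.75, Irf3 and Irf8 of 0.73, Irf1 and Irf9 of 0.72 and Batf and Batf3 of 0.70. Irf7 was nearest to Batf2 at 0.48 and farthest from Irf8 at -0.66. Batf2 was nearest to Irf1 at 0.51 and had an r of -0.02 with Batf. The points of each r share their libraries, their depth and their mix of cells, and the value for Irf3 and Irf8 includes KO LPS replicate 3, which was the lowest of its group for both.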

How the data were processed

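The authors trimmed reads of stranded, ribosomal-RNA-depleted total RNA with Cutadapt, mapped them with STAR 2.7.9a (version from the submitters' processing notes) to GRCm39 and counted them per Ensembl gene; the deposited values are raw counts, and whether counting used strand is not given in the sources used here. Several members overlap genes on the opposite strand (for example Irf1 with Gm12216, Batf2 with Arl2), and reads of such stretches cannot be told apart without strand. Counts of all 19 libraries were fitted in edgeR 4.0.16 with 4 groups, TMM scaling and filterByExpr (minimum count 10, minimum total 15), and tested with the quasi-likelihood test under R 4.3.3. Adjusted p-values are Benjamini-Hochberg over 18739 genes; the steps were tested on simulated data. Alternatives were DESeq2 1.42.0, its size factors, other filters, other thresholds, fits of 2 groups only, a replicate block, and leaving out each library. CPM used TMM library sizes, log2 CPM a prior count of 2, and lengths and names came from GENCODE release 39. A floor of 3 counts was used for genes at 0, which covers counting error only. Replicates are separate mice. Replicate numbers were not taken to pair the libraries. The rule for the 10 members uses symbols only, but members, pathway lists and markers were chosen with earlier results of these data known. Text names the 10 members, list genes (some are not reported here), Park7 and the 3 protein-coding genes closest to each member, of which only the closest is printed for members that were not called. Single libraries and the marker genes given beside Batf2 were picked out after their values were seen.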

Additional observations from a re-analysis of the deposited data

Results flagged for a closer look

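In 3 of 40 sets of values, 1 mouse stood apart from the rest of its group by Dixon's test, and chance alone gives about 1 in 20. Irf2 was at 119 CPM in the first wildtype LPS library, with the other 4 at 73.4 to 85.4 CPM. Irf8 was at 512 CPM in the second KO PBS library, with the other 4 at 424 to 435 CPM. Batf was at 4.01 CPM in the third KO PBS library, with the other 4 at 2.38 to 2.83 CPM.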

How the results depend on the processing

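The rise of Irf1, Irf7, Irf9, Batf and Batf2 with LPS was called in every alternative run, and so was the lower Batf2 of KO mice after LPS by its unadjusted p, at log2FC of -1.30 to -0.82. By the adjusted p, 0 members were called in that comparison. By the unadjusted p, leaving out 1 library gave 1 to 3 members called (Irf1, Irf7, Batf2). Of 570 values with a library left out, 507 kept direction and call, 10 gained a call and 53 changed sign. Of 340 values in other settings 334 kept both, 5 changed sign, and Irf5 in wildtype gained a call at -0.52 with at least 10 counts in every library. The rule for taking replicate numbers as pairs, that every pair exceed an r of 0.1, was not met. Within a genotype, 7 of 9 same-numbered pairs had an r over 0.1 (-0.04 to 0.58), and a library was nearest to its own number in 6 of the 9. Across genotypes, 4 of 18 had an r over 0.1 (-0.58 to 0.42), with 3 of the 18 nearest to their own number. The main fit treats libraries as unpaired, and a batch shared by same-numbered PBS and LPS mice of a genotype was not tested. The replicate block shared each replicate number across both genotypes, so it does not test a pairing within a genotype. This block left 5, 5, 1 and 0 members called for LPS in wildtype, LPS in KO, genotype after LPS and genotype at PBS. It turned Irf5 (0.00) and Batf3 (-0.03) at PBS and the difference of LPS changes of Batf (0.07). Irf8 at PBS was 0.00 with only the 2 groups compared and with ribosomal RNA and mitochondrial genes left out.

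Some values that were not called changed sign with a library left out, and their ranges over all omissions follow. For KO against wildtype after LPS they were -0.20 to 0.01 (Irf2), -0.18 to 0.08 (Irf8), -0.07 to 0.04 (Irf9), -0.11 to 0.35 (Batf) and -0.11 to 0.30 (Batf3). At PBS the ranges were -0.14 to 0.05 (Irf1), -0.06 to 0.02 (Irf2), -0.11 to 0.11 (Irf5), -0.11 to 0.07 (Irf8), -0.20 to 0.01 (Irf9) and -0.11 to 0.15 (Batf3). For the difference of LPS changes they were -0.17 to 0.04 (Irf2), -0.22 to 0.11 (Irf3), -0.03 to 0.19 (Irf5), -0.18 to 0.09 (Irf8), -0.02 to 0.18 (Irf9), -0.26 to 0.21 (Batf) and -0.16 to 0.25 (Batf3). The cause was not tested. Depth limits Batf2 at PBS, with 15 to 34 counts per library.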
